A study of Mus musculus with 13 samples.

Results

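The liver and the kidney of the same kind of mouse were set against each other across all genes. The 7 libraries were bulk RNA-seq of tissue pieces from CD-1 (ICR) mice, an outbred stock, at 8 weeks of age, out of 13 libraries in the series. They comprised 3 livers and 4 kidneys, chosen by the tissue and treatment labels. All 7 came from offspring of oocytes that had been vitrified by the Cryotop method (rapid freezing in a glass-like state) and thawed. The oocytes were fertilised in vitro, and cleaved embryos cultured in KSOM medium were transferred to pseudopregnant females. No allele or drug was named in the labels. The other 6 libraries, 3 livers and 3 kidneys, came from oocytes that were handled alike but not frozen, and are used here only as separate samples for the same contrast. The series was designed to compare the oocyte treatments. The labels call the libraries biological replicates but give no sex, litter or batch, and do not say that any liver and kidney came from the same mouse. The p-values therefore measure the spread between these samples.

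Hepatocytes, the main cells of the liver, secrete most plasma proteins, make urea and bile acids, and detoxify foreign compounds. In the kidney, blood is filtered in the glomerulus, and the filtrate is then reclaimed by a series of tubule segments, of which the proximal tubule is the bulkiest. Both organs make glucose, take up organic ions and share transcription factors of the hepatocyte nuclear factor family, while the kidney carries positional Hox gene expression from the embryonic trunk.

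Library totals lay between 16073245 and 19964918 estimated counts. Mitochondrially encoded genes took 8.26% to 15.4% of a liver library and 14.4% to 22.1% of a kidney library, and between 10993 and 13370 genes reached 1 CPM (counts scaled to the library total). A count of 0 in one library allows a level of up to 0.187 CPM at most (3 counts, counting error only). Some libraries stood apart. The summed level of 4 Y-linked genes was 0.170 CPM in kidney vitrified 4 and between 137 and 205 CPM in the other 6. Of the fresh-origin libraries, liver 3 (0.778 CPM) and kidney 3 (1.25 CPM) were also low in it. Kidneys vitrified 1 and 2 held liver transcripts at a more even level than kidneys 3 and 4, and liver vitrified 3 and kidney vitrified 3 had the highest summed levels of immediate early and heat shock genes in their organs. Where a gene described here lost its call without one of these libraries, this is stated beside it. In bulk tissue, fewer cells of a type and less RNA per cell cannot be told apart.

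The labelled organs were checked with 4 markers. The level of Alb, which encodes serum albumin, was 42620, 93476 and 38752 CPM in livers 1 to 3, and 116, 156, 1.28 and 10.5 CPM in kidneys 1 to 4. Every liver was more than 100 times above every kidney, and the kidneys differed among themselves by more than 100 times (log2 fold change 10.59 ± 1.77, adjusted p = 0.000895 for liver over kidney, ± SE). Apoa1, the main protein of high-density lipoprotein, was at 6482, 6233 and 6157 CPM in the livers and at 8.31, 10.3, 0.205 and 0.0566 CPM in the kidneys (log2 fold change 11.33 ± 1.82, adjusted p = 0.00111). The kidneys again fell into a higher and a lower pair. Slc34a1, the phosphate transporter of the proximal tubule brush border, was at 4239.7, 3547, 3515 and 3595 CPM in the kidneys and at 6.62, 7.73 and 4.91 CPM in the livers (log2 fold change -8.21 ± 0.49, adjusted p = 1.25e-06). Kap, the kidney androgen-regulated protein of the proximal tubule, was at 26438, 31456, 27673 and 4849 CPM in the kidneys and 37.99, 44.1 and 37.6 CPM in the livers (log2 fold change -8.21 ± 1.01, adjusted p = 0.000119). Kidney 4 held the lowest Kap level of the kidneys, yet it stayed more than 100 times above every liver. The markers stood on the side of the labelled organ in all 7 libraries.

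The upstream 250 bases of 3 of these marker genes are shown because each organ's markers can be read against letters that liver and kidney factors are known to bind. Sequences are RefSeq's for the mouse build GRCm38.p6, 5′ to 3′ on the gene's strand, and end at the base before the annotated start. Alb lies on the plus strand at chr5:90460620-90460869, Slc34a1 on the plus strand at chr13:55399398-55399647 and Kap on the minus strand at chr6:133853668-133853917. Capitals mark GTTAAT on either strand, letters found in promoters of many liver and kidney genes, and TATAAA on the gene's strand, the TATA box.
Alb: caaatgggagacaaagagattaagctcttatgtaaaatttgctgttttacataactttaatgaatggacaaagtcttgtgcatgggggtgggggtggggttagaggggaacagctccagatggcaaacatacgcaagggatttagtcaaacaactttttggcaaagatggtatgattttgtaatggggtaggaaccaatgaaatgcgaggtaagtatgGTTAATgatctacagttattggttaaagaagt
Slc34a1: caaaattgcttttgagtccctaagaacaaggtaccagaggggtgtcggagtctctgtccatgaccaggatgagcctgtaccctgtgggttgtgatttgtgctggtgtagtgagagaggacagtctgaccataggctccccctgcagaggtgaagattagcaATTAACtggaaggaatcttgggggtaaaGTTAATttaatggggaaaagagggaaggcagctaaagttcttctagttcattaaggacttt
Kap: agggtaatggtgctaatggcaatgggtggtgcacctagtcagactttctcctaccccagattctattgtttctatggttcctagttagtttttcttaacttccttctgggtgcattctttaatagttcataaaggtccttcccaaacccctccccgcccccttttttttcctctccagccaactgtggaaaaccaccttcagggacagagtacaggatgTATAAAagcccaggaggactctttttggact
The Alb window holds GTTAAT with its first base 32 bases before the start. The Slc34a1 window holds it at 61 bases and holds its reverse complement, ATTAAC, at 89 bases. The Kap window holds TATAAA at 31 bases. The window of Apoa1 (chr9:46228380-46228629, plus strand) holds none of the letters searched. Those were the pair above, CAAAGTCCA and CAAAGGTCA on both strands (forms of the element bound by HNF4), and the matches shown do not overlap. A match is a description of letters, not of binding.

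Of the 22298 genes in the table, 4436 had no count in these 7 libraries and 14017 passed the filter on low counts and were tested with edgeR's quasi-likelihood test. At a Benjamini-Hochberg adjusted p under 0.05, 6383 genes (45.5%) differed between the organs, 2888 of them (20.6%) higher in liver and 3495 (24.9%) higher in kidney. Against a minimum change of 2 times, 3560 genes (25.4%) were called, 1346 (9.6%) higher in liver and 2214 (15.8%) higher in kidney. Groups did not overlap for 9450 genes (67.4%), counted in CPM by library totals and not on the scale of the fold changes. The split between directions depends on the scale. Fold changes here use TMM scaling, which sets the median gene at a log2 fold change of 0.01. Scaled by library totals alone, the median is -0.99, and 1175 genes were higher in liver and 8161 in kidney. Levels in CPM are by library totals and so stand about 1 log2 unit lower in liver than the fold changes do. Directions named for single genes below hold under both scales unless stated. Counts of list members called below, by TMM, stand against 20.6% higher in liver and 24.9% higher in kidney over all genes. The lists were chosen with earlier results of these data known, so their shares are descriptions only.

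**Figure D1:**
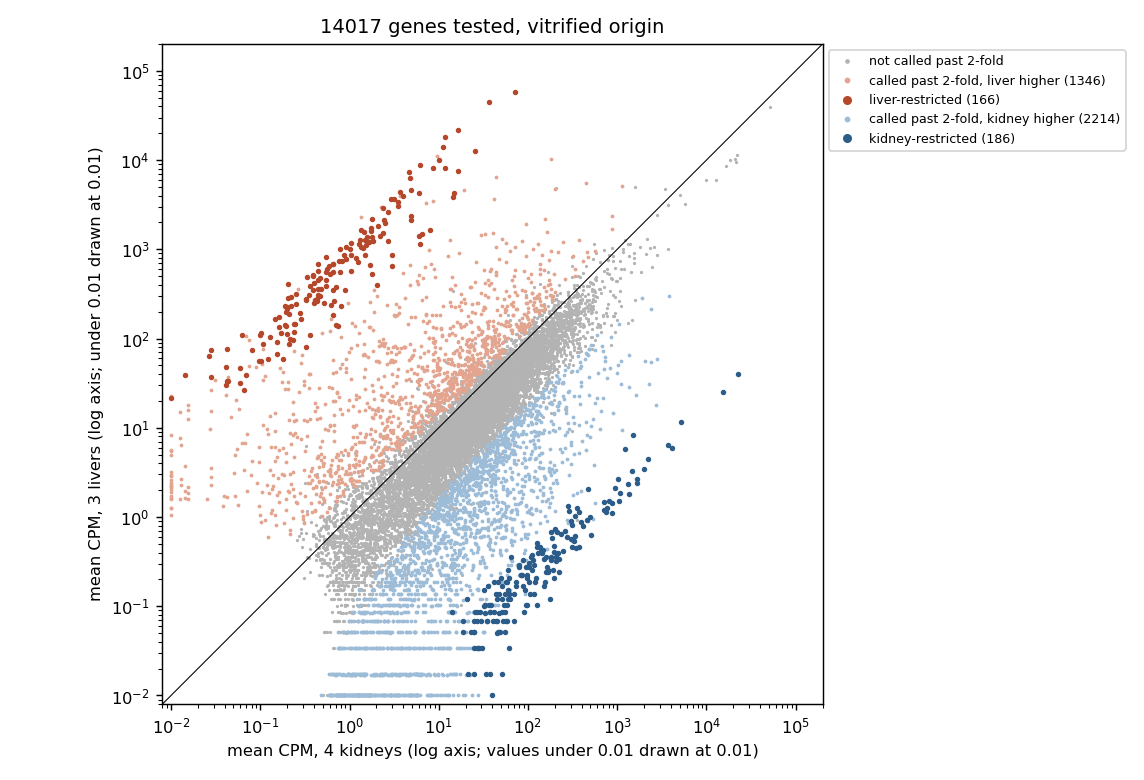
Mean level in the 3 livers against the mean level in the 4 kidneys for the 14017 genes tested, in CPM by library totals on log axes, with the line of equal CPM. Light colours mark the 1346 and 2214 genes called past 2 times, and dark colours the 166 liver-restricted and 186 kidney-restricted genes, which form a band on each side roughly parallel to the line. The cloud of uncalled genes lies below the line because the TMM scale differs from library totals.

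A gene was counted as organ-restricted if it was called, reached 10 CPM in every library of its organ and was at least 100 times higher in the lowest library of that organ than in the highest of the other. This held for 166 genes in liver (1.18% of those tested) and 186 in kidney (1.33%), of which 2 and 4 were predicted genes. With levels scaled by DESeq2 size factors in place of library totals the counts were 210 in liver and 93 in kidney, so which organ has more rests on the scale. Of the liver-restricted genes, those with the highest mean level were Alb, Mup7, Mup22, Mup14, Mup3, Trf, Serpina3k and Mup20. The Mup genes encode major urinary proteins, pheromone carriers that the liver secretes into the blood and the kidney filters into urine. Mup20 was at 5971, 6928 and 13233 CPM in the livers, at 10.4 and 13.9 CPM in kidneys 1 and 2, and at 0 in kidneys 3 and 4 (log2 fold change 11.47 ± 2.29, adjusted p = 0.00378). Of the Mup genes named, Mup14 spread the most among the livers, at 20743, 3146 and 30587 CPM. The Mup genes are nearly identical copies, so estimated counts may divide reads between them and the split between members is uncertain. Trf, which encodes transferrin, the iron carrier of plasma, was at 9668, 15265 and 12953 CPM in the livers and 32.6, 37.2, 8.83 and 23.4 CPM in the kidneys (log2 fold change 9.94 ± 0.81, adjusted p = 8.08e-06). Unlike the Mup genes, Trf did not fall near 0 in kidneys 3 and 4.

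Of the kidney-restricted genes, the highest were Kap, Gpx3, Acsm2, Umod, Slc34a1, Lrp2, Egf and Cltrn. Gpx3, the secreted glutathione peroxidase of plasma, was at 12290, 21828, 9588 and 17214 CPM in the kidneys and 26.3, 26.7 and 22.96 CPM in the livers (log2 fold change -8.24 ± 0.72, adjusted p = 1.18e-05). Lrp2, the endocytic receptor megalin, was at 2687, 1728, 2156 and 2349 CPM in the kidneys and 4.6, 5.002 and 3.93 CPM in the livers (log2 fold change -7.96 ± 0.44, adjusted p = 7.53e-07). Both separate the organs without any near-overlap. Umod, which encodes uromodulin of the thick ascending limb, was at 3558, 3623, 3137 and 5964 CPM in the kidneys and 6.72, 5.83 and 5.38 CPM in the livers. Egf, the precursor of epidermal growth factor, was at 1769.7, 1164, 1343 and 3616 CPM in the kidneys and 4.24, 2.84 and 3.26 CPM in the livers. Kidney 4 was the highest for these distal tubule genes and the lowest for Kap and Acsm2, whose levels in kidney 4 were 4849 and 1383 CPM. Without kidney vitrified 4, 215 genes met the kidney rule and 172 the liver rule.

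**Figure D2:**
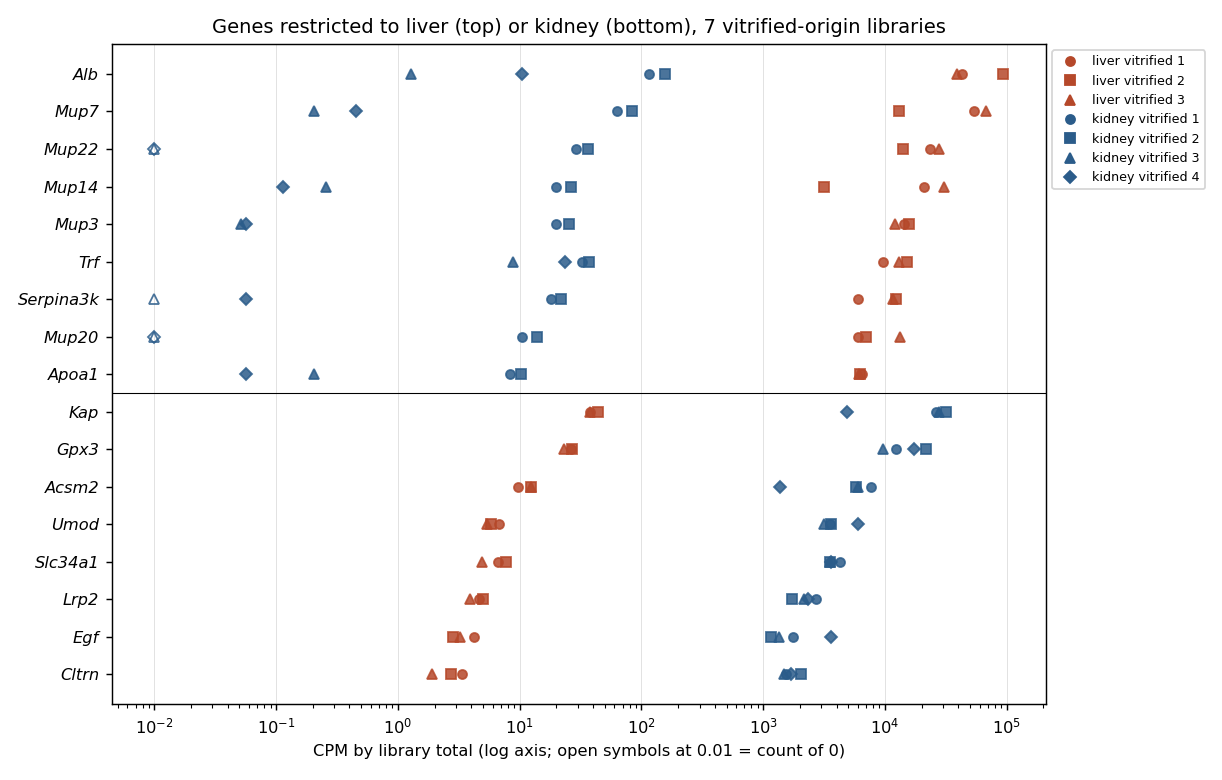
Level in CPM (log axis) of the 8 liver-restricted genes with the highest mean, Apoa1, and the 8 such kidney-restricted genes, in each of the 7 libraries. Liver libraries are red and kidney libraries blue, with a shape for each replicate. Each gene leaves a gap of at least 100 times between the organs. For every liver gene shown, kidneys 1 and 2 lie close together and above kidneys 3 and 4.

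Letters in the upstream windows were counted over the restricted genes whose window was in the RefSeq table. GTTAAT on either strand was in 25 of 136 liver-restricted windows (18.4%) and 31 of 142 kidney-restricted windows (21.8%), against 626 of 11038 windows of all genes tested (5.67%). TATAAA was in 17.6% of liver-restricted and 9.86% of kidney-restricted windows, against 5.27% of all tested. CAAAGTCCA was in 3.68% of liver-restricted windows, 0.704% of kidney-restricted windows and 0.507% of all tested. CAAAGGTCA was in 3.68%, 0.704% and 0.417% in the same order. These shares are descriptions, and nothing follows from them about which factor binds.

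Liver secreted proteins were higher in liver almost without exception. Of 31 plasma proteins made by hepatocytes, 31 were called higher in liver, against 20.6% of all genes tested, and 27 were liver-restricted. Their median log2 fold change was 10.55, against 0.01 over all genes. Fgb, the fibrinogen beta chain, was at 3338, 4819 and 5016 CPM in the livers and 5.36, 9.21, 0.0513 and 0 CPM in the kidneys (log2 fold change 11.18 ± 1.97, adjusted p = 0.00197). Hpx, the haem carrier hemopexin, had a log2 fold change of 11.16 ± 1.52. Of 33 complement and coagulation genes, 33 were higher in liver, with a median of 9.17. F11, which encodes coagulation factor XI, was at 127, 109 and 96.1 CPM in the livers and was counted in only 1 kidney, at 0.249 CPM (log2 fold change 11.74 ± 0.70, adjusted p = 1.96e-06). F12, coagulation factor XII, and C8b, a part of the membrane attack complex, had log2 fold changes of 10.88 ± 0.69 and 10.75 ± 1.26.

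Enzymes followed the division of labour between the organs less uniformly. Of 20 hepatocyte enzymes, 17 were higher in liver and 0 in kidney (median 10.70). Otc, the ornithine transcarbamylase of the urea cycle, was at 786, 699.6 and 543 CPM in the livers and 0.501, 1.24, 0.0513 and 0 CPM in the kidneys (log2 fold change 11.52 ± 1.13, adjusted p = 6.13e-05). Among those not called was Cyp2e1, an ethanol-inducible cytochrome P450, which was at 4131, 6405 and 4409 CPM in the livers and at 2118, 2084, 2094 and 37.9 CPM in the kidneys, where kidney 4 was far below the other 3.

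The urea cycle list had 7 of 9 members higher in liver and 1 higher in kidney. Arg1, the cytosolic arginase, was at 1235, 1098 and 706 CPM in the livers and 1.1, 1.93, 0 and 0.113 CPM in the kidneys (log2 fold change 11.28 ± 1.28, adjusted p = 0.000144), and Cps1, the entry enzyme carbamoyl phosphate synthetase, had a log2 fold change of 11.19 ± 1.82. The kidney gene was Arg2, the mitochondrial arginase, at 6.81, 6.53, 13.1 and 18.5 CPM in the kidneys and 0.101, 0.773 and 1.03 CPM in the livers (log2 fold change -3.10 ± 0.67, adjusted p = 0.00406). By library totals, 4 members were higher in liver. Of 33 genes of amino acid breakdown, 28 were higher in liver and 1 in kidney (median 2.37), and by library totals 19 and 3. Sds, serine dehydratase, Tat, tyrosine aminotransferase, and Agxt, which detoxifies glyoxylate, had log2 fold changes of 11.08 ± 0.66, 10.98 ± 1.13 and 10.94 ± 0.82. Dao, which oxidises D-amino acids, was the kidney gene, at 269.8, 297, 188 and 142 CPM in the kidneys and 0.303, 0.464 and 0.259 CPM in the livers (log2 fold change -8.38 ± 0.47, adjusted p = 8.24e-07).

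Most bile acid genes were higher in liver. Of 21 tested, 16 were higher in liver and 2 in kidney. Cyp8b1, the sterol 12-alpha-hydroxylase of bile acid synthesis, was at 180.2, 93.4 and 129 CPM in the livers and 0.15, 0.124, 0.205 and 0.17 CPM in the kidneys (log2 fold change 10.61 ± 0.40, adjusted p = 3.05e-07). Abcb11, the bile salt export pump, and Slco1b2, an uptake carrier of the hepatocyte's blood-facing side, had log2 fold changes of 10.35 ± 1.20 and 10.33 ± 1.24. The kidney genes were Slc51a and Slc51b, the 2 subunits of the basolateral organic solute transporter. Slc51a was at 115, 117, 155 and 58.2 CPM in the kidneys and 1.36, 0.773 and 1.14 CPM in the livers (log2 fold change -5.70 ± 0.49, adjusted p = 1.25e-05). Slc51b was at 22.99, 27.4, 22.5 and 23.6 CPM in the kidneys and 0.303, 0.309 and 0.259 CPM in the livers (log2 fold change -5.38 ± 0.31, adjusted p = 8.89e-07). For both subunits every kidney lay above every liver.

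Of 32 cytochrome P450 genes, 21 were higher in liver and 4 in kidney (median 6.52). Cyp1a2, which metabolises caffeine and aromatic amines, was at 570.4, 424 and 473 CPM in the livers and 0.351, 0.933, 0 and 0.0566 CPM in the kidneys (log2 fold change 11.51 ± 1.004, adjusted p = 2.97e-05). Cyp2c50 and Cyp2d10 had log2 fold changes of 11.86 ± 0.91 and 11.37 ± 1.01. Members of the Cyp2c, Cyp2d, Cyp3a and Cyp4a clusters resemble each other closely, so their split is uncertain. On the kidney side, Cyp24a1, which inactivates vitamin D, was at 41.2, 61.03, 91.1 and 18.7 CPM in the kidneys and 0.152, 0 and 0.0517 CPM in the livers (log2 fold change -8.58 ± 0.96, adjusted p = 0.000139). Cyp4b1 was at 4230.1, 3069.5, 3329 and 274 CPM in the kidneys and 15.5, 26.8 and 11.2 CPM in the livers (log2 fold change -6.35 ± 1.003, adjusted p = 0.000757), with kidney 4 lowest. The summed level of the P450 list was 2332 CPM in kidney 4 and between 9142 and 11278 CPM in the other 3 kidneys. In the fresh origin the list summed to 10831, 11170 and 3208 CPM in kidneys 1 to 3. Kidney vitrified 4 and kidney fresh 3 were the kidneys with a low Y-linked level, and the part of that difference was not tested.

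Lipid synthesis lay with the liver, while glycolysis divided. Of 20 tested genes of fatty acid and triglyceride synthesis, 17 were higher in liver and 0 in kidney (median 2.51). Thrsp, a protein that stimulates lipogenesis, was at 697, 484 and 772 CPM in the livers and 2.65, 4.42, 2.11 and 2.66 CPM in the kidneys (log2 fold change 8.79 ± 0.47, adjusted p = 6.43e-07). Scd1, the stearoyl-CoA desaturase, and Apob, the scaffold protein of lipoproteins, had log2 fold changes of 4.81 ± 0.45 and 4.59 ± 0.69. By library totals 14 were higher in liver and 2 in kidney. Of 39 genes of glycolysis, gluconeogenesis and glycogen, 12 were higher in liver and 15 in kidney (median 0.14), and by library totals 10 and 19 (median -0.84). Gckr, the regulator of glucokinase, had a log2 fold change of 10.34 ± 0.43. Ldhb, the heart-type lactate dehydrogenase subunit, was at 1168, 1411, 1012 and 1363 CPM in the kidneys and 7.98, 5.31 and 4.24 CPM in the livers (log2 fold change -6.74 ± 0.41, adjusted p = 1.28e-06). Fbp2, the muscle isoform of fructose bisphosphatase, and Pfkp, the platelet isoform of phosphofructokinase, had log2 fold changes of -6.82 ± 0.74 and -4.08 ± 0.31.

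For fatty acid oxidation and ribosome genes the direction rests on the scale, and for respiration the number of genes called does. Of 23 fatty acid oxidation genes, 9 were higher in liver and 4 in kidney (median 0.42), against 20.6% and 24.9% of all genes. By library totals, however, 2 were higher in liver and 9 in kidney (median -0.56). Acaa2, a mitochondrial thiolase, was at 530.3, 738 and 542 CPM in the livers and 85.5, 128, 67.9 and 261 CPM in the kidneys (log2 fold change 3.19 ± 0.42, adjusted p = 0.000187). Cpt1b, the muscle isoform of carnitine palmitoyltransferase, was at 24.2, 22.6, 22.2 and 34.1 CPM in the kidneys and 0.606, 0.567 and 0.362 CPM in the livers (log2 fold change -4.65 ± 0.29, adjusted p = 1.41e-06). Of 29 nuclear-encoded subunits of oxidative phosphorylation, 0 were higher in liver and 3 in kidney (median -0.34), and by library totals 29 were higher in kidney (median -1.32). Of 30 ribosomal protein genes, 8 were higher in liver and 0 in kidney (median 0.49), whereas by library totals 0 were higher in liver and 4 in kidney (median -0.49). The log2 fold change of Rps27 was 0.94 ± 0.31 by TMM and -0.03 by library totals, and it was not called when any single library other than kidney 2 was left out (0.78 to 0.98).

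Kidney segments were resolved from the filter to the collecting duct. Of 44 proximal tubule genes, 40 were higher in kidney, against 24.9% of all genes tested, and 1 in liver, with a median log2 fold change of -7.77. Slc7a9, a subunit of the cystine carrier, was at 106, 134, 70.5 and 194 CPM in the kidneys and 0.152, 0.0516 and 0.103 CPM in the livers (log2 fold change -9.19 ± 0.50, adjusted p = 7.19e-07). Slc5a2, the glucose transporter SGLT2, was at 377, 336, 209.7 and 444 CPM in the kidneys and 0.404, 0.413 and 0.517 CPM in the livers (log2 fold change -8.55 ± 0.38, adjusted p = 3.5e-07). Slc22a8, an organic anion transporter, had a log2 fold change of -8.68 ± 0.64. The exception was Dpp4, a peptidase of brush borders that the liver also expresses, at 125, 214 and 108 CPM in the livers and 100.1, 77.5, 77.8 and 151 CPM in the kidneys (log2 fold change 1.54 ± 0.26, adjusted p = 0.000995). By library totals Dpp4 was not called, and 43 members were higher in kidney.

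Of 17 thick ascending limb genes, 16 were higher in kidney and 1 in liver. Slc12a1, the NKCC2 cotransporter, was at 1216, 1032, 1019 and 2173 CPM in the kidneys and 1.92, 1.55 and 1.91 CPM in the livers (log2 fold change -8.53 ± 0.47, adjusted p = 7.54e-07). Kcnj1, the potassium channel ROMK, was at 135, 179, 164 and 405 CPM in the kidneys and 0.202, 0.361 and 0.155 CPM in the livers (log2 fold change -8.81 ± 0.52, adjusted p = 1.15e-06). Kidney 4 was the highest in both. The gene that went the other way was Cldn14, a tight junction protein, at 7.32, 5.26 and 62.05 CPM in the livers and 0.1, 0.249, 0.667 and 0.0566 CPM in the kidneys (log2 fold change 7.56 ± 1.26, adjusted p = 0.00172), with liver 3 highest. Of 14 genes of the distal convoluted and connecting tubule, 14 were higher in kidney. Slc12a3, the thiazide-sensitive cotransporter NCC, was at 324, 291, 418 and 1010.1 CPM in the kidneys and 0.606, 0.825 and 0.465 CPM in the livers (log2 fold change -8.62 ± 0.57, adjusted p = 2.07e-06). S100g, the calcium binder calbindin-D9k, had a log2 fold change of -8.63 ± 0.59. Trpv5, the apical calcium channel, was at 8.41, 8.27, 13.9 and 21.1 CPM in the kidneys and 0 in every liver, so it was at least 83.3-fold higher in kidney.

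In the collecting duct, 11 of 12 principal cell genes and 16 of 17 intercalated cell genes were higher in kidney, and 0 of either list in liver. Aqp2, the vasopressin-regulated water channel, was at 151, 162, 153 and 318 CPM in the kidneys and 0.253, 0.309 and 0.0517 CPM in the livers (log2 fold change -8.87 ± 0.49, adjusted p = 7.54e-07). Hsd11b2, which protects the mineralocorticoid receptor from corticosterone, had a log2 fold change of -8.93 ± 0.53. Fxyd4, a regulator of the sodium pump, was at 22.04, 25.7, 14.3 and 31.998 CPM in the kidneys and 0 in every liver, at least 151-fold higher in kidney. Of the intercalated cell genes, Atp6v1g3, a subunit of the proton pump, was at 35.96, 64.8, 41.6 and 61.8 CPM in the kidneys and was counted in 1 liver at 0.0516 CPM (log2 fold change -10.24 ± 0.58, adjusted p = 8.69e-07). Insrr, an alkali-sensing receptor related to the insulin receptor, was 0 in every liver and at least 177-fold higher in kidney. In the inner medulla and urothelium list, 9 of 11 were higher in kidney. Slc14a2, the urea transporter of the inner medulla, was at 29.6, 23.8, 22.2 and 83.7 CPM in the kidneys and 0 in every liver, at least 257-fold higher in kidney. Slc6a12, a betaine carrier, was higher in liver, at 55.4, 60.5 and 55.4 CPM against 2.96, 2.92, 2.002 and 4.08 CPM in the kidneys (log2 fold change 5.26 ± 0.23, adjusted p = 3.32e-07).

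Glomerular genes were less exclusive. Of 16 podocyte genes, 12 were higher in kidney and 1 in liver (median -3.35). Nphs1, the slit diaphragm protein nephrin, was at 19.6, 13.003, 22.1 and 71.1 CPM in the kidneys and 0.101, 0.0516 and 0 CPM in the livers (log2 fold change -8.09 ± 0.89, adjusted p = 8.78e-05). Podxl, the surface sialoprotein podocalyxin, was at 176, 160.0, 175 and 526 CPM in the kidneys and 3.89, 8.04 and 5.74 CPM in the livers (log2 fold change -4.42 ± 0.48, adjusted p = 5.56e-05). The podocyte list summed to 834, 776, 831 and 1813 CPM in kidneys 1 to 4, so kidney 4 held more than 2 times the level of any other. The thick ascending limb list summed to 7381, 6775, 6169 and 13323 CPM and the proximal tubule list to 80265, 89665, 73087 and 50140 CPM in the same order. Kidney 4 was thus highest for the first pair and lowest for the last. Of the fresh-origin kidneys, kidney 3 likewise had the highest podocyte (1475 CPM) and thick ascending limb (10857 CPM) sums and the lowest proximal tubule sum (55086 CPM). Slc7a13, a proximal tubule amino acid carrier, was at 733, 658, 747 and 3.74 CPM, with kidney 4 more than 100 times below the other 3. The part of its low Y-linked level in these differences was not tested. Of 9 genes of glomerular endothelium and juxtaglomerular cells, 7 were higher in kidney, among them Plat, the tissue plasminogen activator (log2 fold change -6.59 ± 0.58, adjusted p = 1.87e-05).

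The non-hepatocyte cells of the liver were also visible. Of 12 Kupffer cell and macrophage genes, 11 were higher in liver and 0 in kidney. Clec4f, a lectin of Kupffer cells, was at 72.4, 108 and 46.5 CPM in the livers and 0.0501, 0.0622, 0 and 0.0566 CPM in the kidneys (log2 fold change 11.54 ± 0.45, adjusted p = 3.05e-07). Cd5l, a secreted macrophage protein, had a log2 fold change of 10.46 ± 0.65. The summed level of the list was 300.4, 674 and 263 CPM in the livers, with liver 2 highest, and 126, 123, 135 and 183 CPM in the kidneys. Of 9 genes of liver sinusoidal endothelium, 9 were higher in liver. Clec4g was at 39.4, 75.5 and 30.2 CPM in the livers and 0.0501, 0.0622, 0.0513 and 0 CPM in the kidneys (log2 fold change 10.88 ± 0.48, adjusted p = 3.48e-07). Lyve1, the hyaluronan receptor, and Dnase1l3, a secreted nuclease, had log2 fold changes of 5.63 ± 0.49 and 6.94 ± 0.37. Liver 2 was the highest of the livers for Clec4f, Cd5l, Clec4g and Dnase1l3, and liver 3 for Lyve1.

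Of 14 stellate cell and fibroblast genes, 7 were higher in liver and 2 in kidney, and by library totals 6 and 5. Reln, the matrix protein reelin, was at 20.7, 82.4 and 45.6 CPM in the livers and 8.01, 6.35, 6.67 and 8.89 CPM in the kidneys (log2 fold change 3.70 ± 0.38, adjusted p = 3.94e-05). Dcn, decorin, had a log2 fold change of 3.04 ± 0.38. The fibrillar collagen gene Col1a2 and the receptor gene Pdgfrb were the kidney pair (-1.04 ± 0.29 and -1.02 ± 0.30). Neither was called without kidneys 3 and 4 (-0.83 and -0.72) or without liver 1 (-0.90 and -1.02), nor was Pdgfrb without liver 3 (-0.85). Of 7 cholangiocyte genes, 1 was higher in liver and 4 in kidney, where tubule epithelium also expresses them. Krt7, a keratin of duct epithelium, was at 49.5, 68.3, 67.005 and 81.9 CPM in the kidneys and 0.404, 0.567 and 1.14 CPM in the livers (log2 fold change -5.54 ± 0.41, adjusted p = 4.22e-06). Of 7 erythroid genes, Alas2, the erythroid enzyme of haem synthesis, was higher in liver (log2 fold change 4.71 ± 0.25, adjusted p = 6.17e-07), while Slc4a1, an anion exchanger of red cells and of intercalated cells, was higher in kidney (log2 fold change -5.08 ± 0.39, adjusted p = 5.15e-06). Of 8 leukocyte genes tested, 2 were higher in liver and 0 in kidney, against 20.6% and 24.9% of all genes.

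Liver regulators fell into restricted and shared ones. Of 27 liver-enriched transcription factors, 17 were higher in liver and 0 in kidney (median 3.79), and by library totals 17 and 4. Creb3l3, a membrane-bound factor of lipid and iron genes, was at 154, 153 and 112 CPM in the livers and 0.2, 0.311, 0.103 and 0.17 CPM in the kidneys (log2 fold change 10.42 ± 0.34, adjusted p = 2.52e-07). Nr1i3, the xenobiotic receptor CAR, was at 225, 222 and 44.9 CPM in the livers and 0.351, 0.311, 0.308 and 0.17 CPM in the kidneys (log2 fold change 10.05 ± 0.65, adjusted p = 3.02e-06), with liver 3 several times below the other livers. Onecut1, which encodes HNF6, was at 67.8, 100.3 and 35.5 CPM in the livers and 0.25, 0.311, 0 and 0.0566 CPM in the kidneys (log2 fold change 9.68 ± 0.63, adjusted p = 3.51e-06). These 3 were the liver-restricted factors of the list. The pioneer factors Foxa2 and Foxa3 had log2 fold changes of 9.30 ± 0.64 and 8.45 ± 0.63, Onecut2 of 8.75 ± 0.40, Nr5a2 of 6.91 ± 0.41 and Gata4 of 6.83 ± 0.57.

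Other hepatocyte factors were present in both organs. Cebpa, a driver of hepatocyte differentiation, was at 162, 145 and 92.8 CPM in the livers and 11.8, 20.8, 12.5 and 26.3 CPM in the kidneys (log2 fold change 3.89 ± 0.31, adjusted p = 6.83e-06). Hnf4a, a central factor of both hepatocyte and proximal tubule, was at 318, 359 and 392 CPM in the livers and 635, 668, 735 and 481 CPM in the kidneys and was not called (log2 fold change 0.16 ± 0.31, adjusted p = 0.701), with every kidney above every liver in CPM.

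Most kidney regulators were higher in kidney. Of 33 kidney-enriched transcription factors tested, 29 were higher in kidney and 1 in liver (median -6.65, or -5.44 with the 5 genes that no liver held set at their bound). The list summed to 101, 84.5 and 73.3 CPM in the livers and 1127, 965, 1100 and 1659 CPM in the kidneys. Tfap2b, a factor of the distal nephron, was at 35.3, 33.8, 31.1 and 85.9 CPM in the kidneys and 0.0505, 0.0516 and 0.0517 CPM in the livers (log2 fold change -8.67 ± 0.55, adjusted p = 1.61e-06). Foxi1, the master factor of intercalated cells, was at 16.9, 19.97, 19.05 and 42.98 CPM in the kidneys and 0, 0.103 and 0 CPM in the livers (log2 fold change -8.31 ± 0.70, adjusted p = 9.2e-06). Pax8, a lineage factor of renal epithelium, was at 69.1, 67.7, 81.7 and 73.4 CPM in the kidneys and 0.202, 0.258 and 0.103 CPM in the livers (log2 fold change -7.60 ± 0.32, adjusted p = 3.32e-07). Emx1, Emx2 and Sim1 had log2 fold changes of -8.64 ± 0.69, -7.83 ± 0.62 and -8.51 ± 0.72. Sim2 and Osr2 were counted in no liver and were at least 93-fold and 67.2-fold higher in kidney.

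Of 28 Hox genes tested, 27 were higher in kidney and 0 in liver (median -7.36, or -4.80 with the 10 genes that no liver held at their bound). Hox genes encode homeodomain proteins that fix position along the body axis. Hoxd8 was at 71.4, 104, 81.2 and 206 CPM in the kidneys and 0.0505, 0.258 and 0.103 CPM in the livers (log2 fold change -8.66 ± 0.56, adjusted p = 1.89e-06). Hoxa9 was at 62.9, 52.5, 46.5 and 66.1 CPM in the kidneys and 0.101, 0.103 and 0 CPM in the livers (log2 fold change -8.63 ± 0.43, adjusted p = 4.84e-07). Hoxb9, Hoxd4, Hoxc10 and Hoxd3 had no count in any liver and were at least 122-fold, 79.3-fold, 70.6-fold and 52.8-fold higher in kidney. Members of all 4 clusters (Hoxa, Hoxb, Hoxc and Hoxd) were among the genes higher in kidney. Hoxa7, Hoxb8 and the Hox genes named above each stayed under 1 CPM in every liver.

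**Figure D3:**
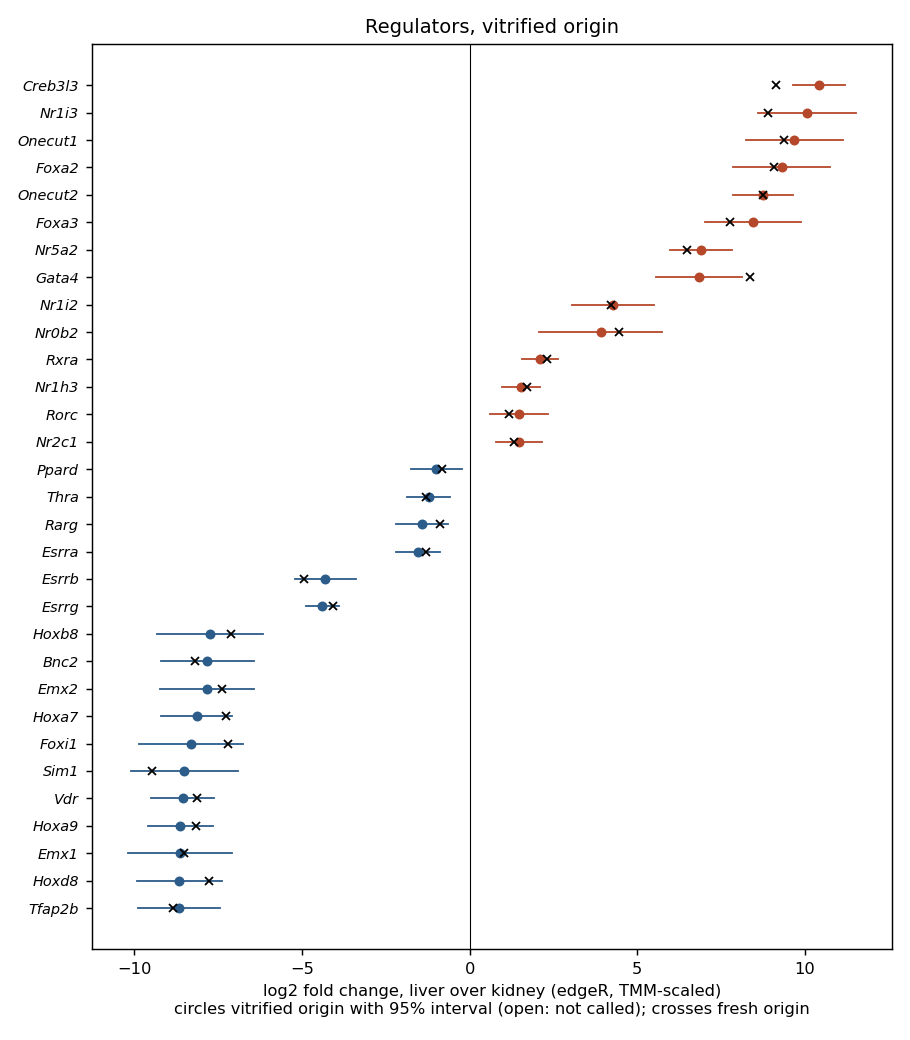
Log2 fold change of liver over kidney for transcription factors, nuclear receptors and Hox genes with the largest changes in their lists, with 95% intervals from the 7 libraries, and crosses for the fresh-origin libraries. Genes counted in no liver are left out. The factors run from Creb3l3 at 10.42 to Tfap2b at -8.67.

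Nuclear receptors were called on both sides, and only on the kidney side at a share near that of all genes. Of 41 tested, 14 were higher in liver, against 20.6% of all genes, and 11 in kidney, against 24.9% (median 0.16), and by library totals 6 and 16. Nr1i2, the xenobiotic receptor PXR, was at 27.8, 48.1 and 18.4 CPM in the livers and 2.3, 2.61, 1.08 and 7.14 CPM in the kidneys (log2 fold change 4.27 ± 0.53, adjusted p = 0.000221). Nr0b2, the bile acid feedback repressor SHP, had a log2 fold change of 3.90 ± 0.80 and was not called without kidneys 3 and 4 (3.77), and Rxra, the common partner of many receptors, one of 2.10 ± 0.24. On the kidney side, Vdr, the vitamin D receptor, was at 196, 171, 229.5 and 169 CPM in the kidneys and 0.253, 0.413 and 0.103 CPM in the livers (log2 fold change -8.56 ± 0.42, adjusted p = 4.68e-07). Esrrg and Esrrb, orphan receptors of energy metabolism, had log2 fold changes of -4.41 ± 0.22 and -4.30 ± 0.41.

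Hormones and their receptors were called in both directions. Of 22 hormones and secreted factors tested, 12 were higher in liver and 7 in kidney, where 20.6% and 24.9% of all genes were. Hamp, the iron hormone hepcidin, was at 587, 493 and 409 CPM in the livers and 0.551, 0.933, 0 and 0.0566 CPM in the kidneys (log2 fold change 11.30 ± 1.01, adjusted p = 3.33e-05). Inhbe, an inhibin beta subunit, was at 45.01, 54.9 and 2.28 CPM in the livers, with liver 3 lowest, and at 0, 0.124, 0 and 0 CPM in the kidneys (log2 fold change 10.80 ± 1.38, adjusted p = 0.000405). Of 32 hormone and growth factor receptors tested, 11 were higher in liver and 12 in kidney, against 20.6% and 24.9% of all genes. Asgr1, the asialoglycoprotein receptor subunit, was at 321, 423 and 331 CPM in the livers and 0.601, 1.06, 0.103 and 0 CPM in the kidneys (log2 fold change 10.63 ± 0.95, adjusted p = 3.47e-05). Casr, the calcium-sensing receptor, was at 49.2, 25.7, 24.8 and 104 CPM in the kidneys and 0, 0.103 and 0.155 CPM in the livers (log2 fold change -8.09 ± 0.81, adjusted p = 5.57e-05).

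Paralogues and partner genes were set side by side in 13 pairs, picked with earlier results of these data known. Agt, the precursor of angiotensin, was at 345, 461 and 339 CPM in the livers and 19.8, 34.3, 15.5 and 19.9 CPM in the kidneys (log2 fold change 5.06 ± 0.35, adjusted p = 2.82e-06). Ren1, the protease renin that cleaves it, was at 39.9, 48.3, 35.1 and 104 CPM in the kidneys and 0.606, 0.413 and 2.999 CPM in the livers (log2 fold change -4.29 ± 0.77, adjusted p = 0.00217). The substrate and its enzyme thus had opposite signs. Creatine synthesis showed the same division. Gatm, its first enzyme, was at 911, 553, 465 and 1627 CPM in the kidneys and 13.99, 21.1 and 8.48 CPM in the livers (log2 fold change -4.92 ± 0.50, adjusted p = 3.52e-05). Gamt, its second, was at 172, 131 and 92.4 CPM in the livers and 9.82, 19.4, 10.01 and 13.8 CPM in the kidneys (log2 fold change 4.28 ± 0.33, adjusted p = 5.33e-06). For vitamin D, the 25-hydroxylase Cyp2r1 was higher in liver (log2 fold change 6.26 ± 0.67, adjusted p = 4.77e-05). The 1-alpha-hydroxylase Cyp27b1 was at 2.003, 3.36, 2.88 and 9.06 CPM in the kidneys and 0, 0.0516 and 0.621 CPM in the livers (log2 fold change -3.14 ± 1.01, adjusted p = 0.0314), and it was not called without kidney vitrified 4 (-2.62) or 2 (-3.22), or without liver vitrified 1 (-2.54) or 2 (-2.62).

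Several metabolic paralogues had opposite signs. Pyruvate kinase divided into Pklr (3.85 ± 0.23) and Pkm (-3.47 ± 0.30), and glycogen synthase into Gys2 (4.75 ± 0.47) and Gys1 (-3.59 ± 0.45). For the synthesis of S-adenosylmethionine, Mat1a had a log2 fold change of 10.79 ± 1.44 and Mat2a one of -1.42 ± 0.31.

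Receptors and channels were paired likewise. Klb, the co-receptor of FGF21, was at 10.8, 25.3 and 10.7 CPM in the livers and 0, 0.0622, 0.0513 and 0 CPM in the kidneys (log2 fold change 9.71 ± 0.60, adjusted p = 1.46e-06). Kl, the co-receptor of FGF23, was at 816, 543, 679 and 797 CPM in the kidneys and 1.77, 0.516 and 1.29 CPM in the livers (log2 fold change -8.19 ± 0.53, adjusted p = 1.91e-06). The vasopressin receptors divided into Avpr1a for liver (3.53 ± 0.64) and Avpr2 for kidney (-5.70 ± 0.77). Slc10a1, the hepatocyte bile acid uptake carrier, had a log2 fold change of 9.57 ± 0.66. Its paralogue Slc10a2, known from ileum and kidney, was at 29.96, 48.01 and 479 CPM in the livers and 56.8, 38.2, 80.6 and 61.2 CPM in the kidneys (log2 fold change 2.76 ± 0.95, adjusted p = 0.045). That call rests on liver vitrified 3, without which the log2 fold change was 0.29 and not called. It was also not called without any one of the kidneys (2.60 to 2.999). In all, 24 of the 26 genes were called, 13 higher in liver and 11 in kidney, against 45.5% of all genes. The pairs were picked with earlier results known, so their share is a description only.

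**Figure D4:**
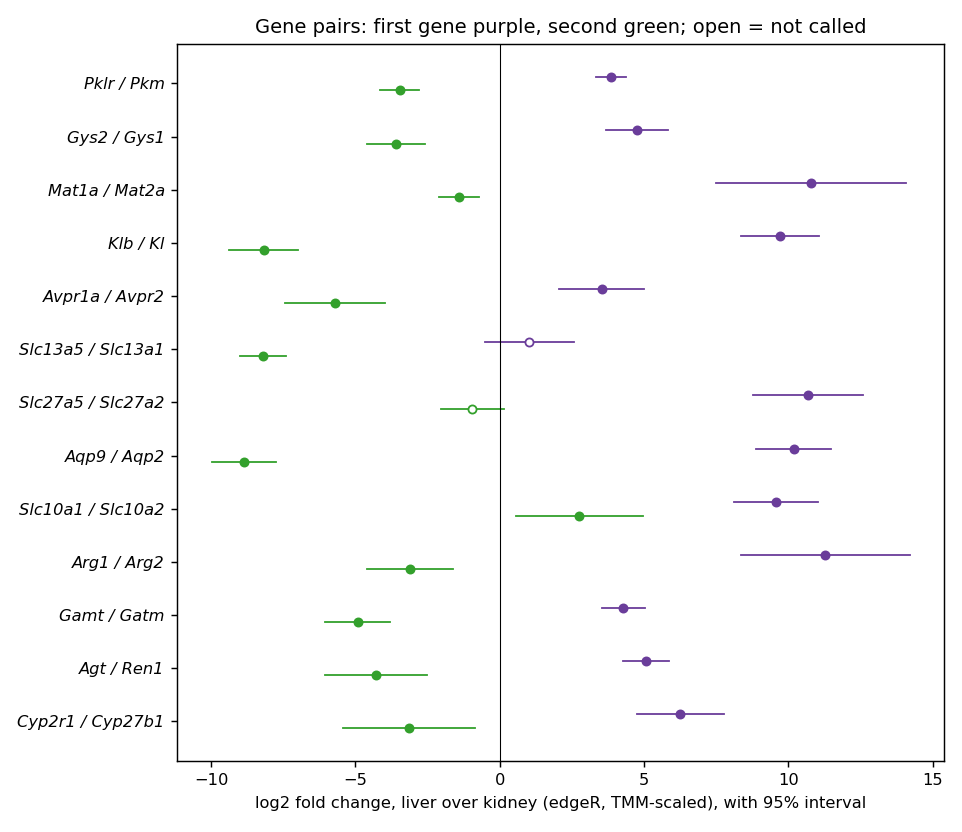
Log2 fold change of liver over kidney with its 95% interval for both genes of 13 pairs, the first gene in purple and the second in green. In most pairs the intervals lie on opposite sides of 0, as for Klb (9.71) and Kl (-8.19). Open circles mark genes that were not called, Slc13a5 and Slc27a2.

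Some genes did not separate the organs. For 180 genes the 95% interval of the fold change lay within 0.5 log2 units of 0 by TMM. Chchd3, Arpc2, Tnks2, Maged1 and Hnrnpa1 were among the highest of them in level. Arpc2, a subunit of the actin-nucleating Arp2/3 complex, was at 75.2, 92.9 and 81.7 CPM in the livers and 178, 170.1, 173 and 149.6 CPM in the kidneys, with a log2 fold change of -0.03 ± 0.21. In CPM by library totals the kidneys lay above the livers for each of these, so their evenness holds on the TMM scale only.

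Liver transcripts were present at a low level in each kidney library. For 51 genes (the plasma protein and hepatocyte enzyme lists), the CPM in a kidney was taken as a percentage of the mean CPM of the 3 livers. In kidney 1 the median was 0.196%, with quartiles of 0.165% and 0.326%, and in kidney 2 it was 0.251%, with quartiles of 0.206% and 0.395%. No gene of the 51 was at 0 in either. In kidney 3 the median was 0.0169%, with 12 genes at 0, and in kidney 4 it was 0.0181%, with 11 genes at 0. The first pair of kidneys thus held most liver genes at one narrow share, and the second pair at a lower share that spread widely. Between 0.1% and 0.4% of the liver level lay 39 genes in kidney 1, 37 in kidney 2, 9 in kidney 3 and 7 in kidney 4. Across the 51 genes, Spearman's rho between a kidney's level and the liver mean was 0.764, 0.789, 0.246 and 0.200 in kidneys 1 to 4. The genes share the library and its depth, and they are not independent replicates.

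The 166 liver-restricted genes are no separate check, since they hold 27 of the 31 plasma proteins and 14 of the 20 hepatocyte enzymes. Their rule also sets a ceiling of 1% of the lowest liver. Their medians were 0.182%, 0.231%, 0.00829% and 0.0134% in kidneys 1 to 4, with 5, 5, 69 and 60 genes at 0. Uox, the urate oxidase of peroxisomes, was at 1629, 2882 and 2015 CPM in the livers and at 3.31, 3.86, 0 and 0 CPM in the kidneys. Fgb gave shares of 0.122%, 0.21%, 0.00117% and 0% in the same order. The 3 fresh-origin kidneys, which the contrast did not use, held Alb at 147, 129 and 306 CPM and Apoa1 at 10.4, 8.34 and 31.6 CPM. In both genes these lay near or above kidneys 1 and 2, and far above kidneys 3 and 4.

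Liver libraries also held kidney transcripts at a low level. For the 186 kidney-restricted genes the median share of the kidney mean was 0.197%, 0.228% and 0.172% in livers 1 to 3, with 22, 10 and 20 genes at 0. Their rule sets a ceiling of 1% of the lowest kidney, so a low share was fixed in advance for them. Of the livers, none showed the lower share of kidneys 3 and 4. Over the 44 proximal tubule genes the medians were 0.221%, 0.272% and 0.250%, near the hepatocyte gene medians of kidneys 1 and 2. That nearness holds by library totals only, since on TMM-scaled totals they were 0.424%, 0.4996% and 0.558% against 0.0975% and 0.136% in kidneys 1 and 2. The medians were low, but 16 genes in each liver lay above 1%, among them Dpp4 and Slc27a2. Slc27a2, a fatty acid transporter of both organs, was at 1028, 1245 and 749.8 CPM in the livers and 4847, 3927, 4384 and 1774 CPM in the kidneys and was not called (log2 fold change -0.95 ± 0.48, adjusted p = 0.137). Without kidney vitrified 4 it was called (-1.22).

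**Figure D5:**
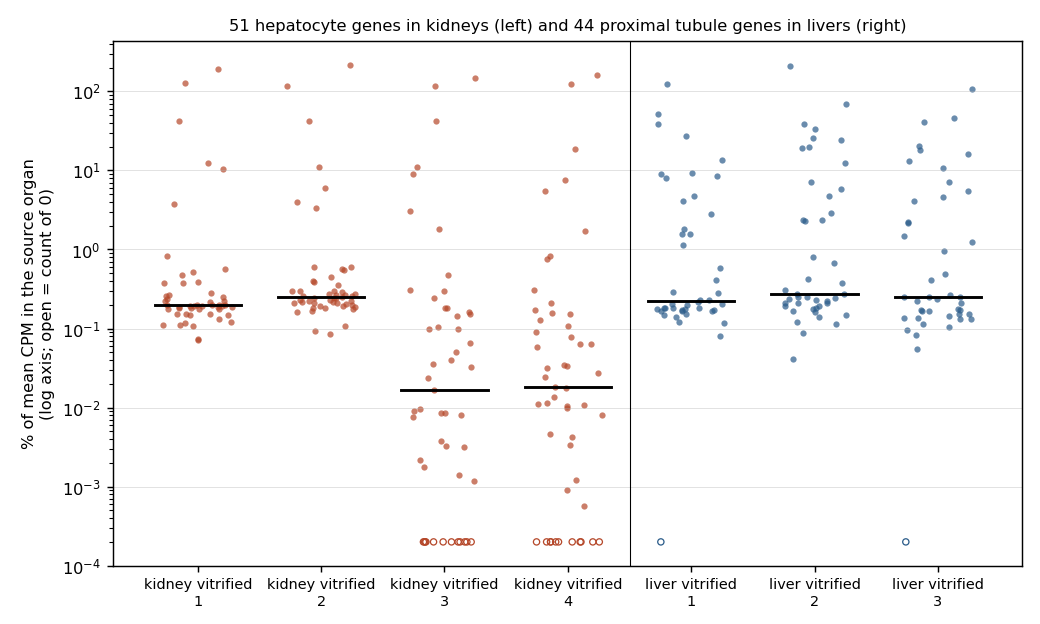
Level of each of 51 hepatocyte genes in the 4 kidneys (left) and of each of 44 proximal tubule genes in the 3 livers (right), as a percentage of its mean CPM in the source organ on a log axis, with black bars at the medians. Points in kidneys 1 and 2 crowd near 0.2%, while those of kidneys 3 and 4 spread down to a count of 0 (open symbols). Points above 1% include Ttr on the left and Dpp4 and Slc27a2 on the right.

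Single liver genes departed from the common share in one or a few kidneys. Ttr, the thyroid hormone carrier transthyretin, gave 0.191%, 5.96%, 11% and 0.0177% in kidneys 1 to 4, from a level of 9.17, 286, 529 and 0.85 CPM. Gc, the vitamin D binding protein, gave 0.474%, 0.397%, 0.106% and 1.72%, and Baat, the bile acid conjugating enzyme, 0.269%, 0.557%, 0.184% and 5.48%. Kidney 4 was the highest for both of these. C8a, a part of the membrane attack complex, gave 10.3%, 3.93%, 9.12% and 0.837%, with kidney 4 the lowest. The departures therefore did not follow the division of the kidneys into pairs.

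The size of the fold changes of liver genes varied with the kidneys used, while their sign did not for the genes named here. Leaving out kidneys 1 and 2 together was chosen after seeing the data. For Alb the log2 fold change was 9.63 without kidneys vitrified 3 and 4 and 14.33 without kidneys 1 and 2. For Apoa1 the values were 10.34 and 16.42. For Otc they were 10.53 and 15.18. Kidneys 3 and 4 held 4 and 1 counts of Apoa1 and 1 and 0 counts of Otc. The sizes 16.42 and 15.18 therefore rest on a few counts and are uncertain. For Creb3l3, which no kidney held above 0.311 CPM, the values were 9.99 and 10.92. Markers of exocrine pancreas were also examined. Amy2a5, pancreatic amylase, was at 1.33 and 1.13 CPM in kidneys 3 and 4 and at 0 in the other 5 libraries. Ctrb1 and Pnlip were likewise counted only in kidneys 3 and 4, at 0.51 CPM or less, and of 8 pancreas markers only 1 was tested. Such markers were not particular to those kidneys, since in the fresh origin 0 of the 8 were at 0 in liver 2 and 1 in liver 3. The origin of these traces was not tested.

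Stress genes moved with single libraries. The heat shock list summed to 2032, 2510.2 and 7440.4 CPM in the livers and 5776, 5694, 11284 and 4643 CPM in the kidneys, and the immediate early list to 159, 135 and 654 CPM and 153, 126, 404 and 205 CPM. Liver 3 and kidney 3 were the highest of their organs for both lists. Of 14 tested immediate early genes, 3 were higher in liver and 2 in kidney, and of 14 heat shock genes 1 in each. Over all genes tested, 20.6% were higher in liver and 24.9% in kidney. Zfp36, which destabilises inflammatory mRNAs, was at 78.4, 69.9 and 154 CPM in the livers and 24.5, 20.8, 63.2 and 26.7 CPM in the kidneys (log2 fold change 2.59 ± 0.51, adjusted p = 0.00321). Hspa5, the chaperone BiP, was at 489, 448 and 1793 CPM in the livers and 458, 513, 902 and 450.4 CPM in the kidneys (log2 fold change 1.69 ± 0.59, adjusted p = 0.0407). It was not called without liver vitrified 3 (0.57), or without kidney vitrified 1 (1.58), 2 (1.64) or 4 (1.54).

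The same contrast in the fresh-origin libraries gave separate samples for these genes. There 6933 of 13729 genes tested (50.5%) differed. Of 6177 genes called in the vitrified origin and tested in the fresh, 6160 had the same sign, and of 3403 called past 2 times, 3399 did. Across 13597 genes tested in both, Pearson's r of the fold changes was 0.966 and Spearman's rho 0.945, which is a correlation across genes that are not independent replicates. Slc34a1 had a fresh-origin log2 fold change of -8.06 against -8.21, and Vdr one of -8.14 against -8.56. Apoa1 had 9.06 against 11.33.

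Whether the organ contrast depends on oocyte origin was tested as an interaction over all 13 libraries. Of 14441 genes tested, 0 (0%) were called by edgeR, with the smallest adjusted p at 0.9999, and 275 (1.90%) had an unadjusted p under 0.05. DESeq2, limma-voom and limma on FPKM called 0 as well. The smallest unadjusted p values belonged to Afap1l2, Plcl1, Col6a5, Adh4, Dmrt2, Fmn1, Adrb3 and Micu3. Afap1l2, an actin-associated adaptor, had a log2 fold change of -6.04 in the vitrified and -3.50 in the fresh origin, and Micu3, a regulator of mitochondrial calcium uptake, -0.73 and -1.95. None of these passed the adjustment. In simulated data the same test called 1.49% of changes of 2 times and 53.7% of changes of 4 times, so many such changes could be missed.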

How the data were processed

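Total RNA of liver and kidney pieces was sequenced, and the authors deposited, for 22298 genes and 13 libraries, estimated counts and FPKM values. The submitters' processing notes name GRCm39 as the build and list DESeq2, StringTie 1.3.1, HISAT2 2.4 and Bowtie2 2.2.8. The part each tool had, how reads were counted and whether strand was used are not stated there, so genes that overlap or are antisense to one another are uncertain. Per the labels' protocols, library making involved rRNA removal as well as mRNA selection. In the 7 libraries of vitrified origin, between 7.63% and 9.02% of the estimated counts per library were not whole, with uncounted genes included in the total. All estimated counts were rounded to whole numbers for the count models. All 26 value columns were matched to a sample.

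The 7 libraries of vitrified origin were fitted in edgeR 4.0.16 under R 4.3.3, by the quasi-likelihood test with robust dispersions, after TMM scaling and filterByExpr, with no covariate. Calls are at a Benjamini-Hochberg adjusted p under 0.05 over all genes tested. Changes past 2 times were tested with glmTreat at a log2 fold change of 1. SE values are derived from the test statistic. Levels are CPM by library totals, as one value per library. Totals were 16073245 to 19964918, and replicate libraries differed by more than counting noise (chi-square of 54.6 or more per gene). Alternatives used DESeq2 1.42.0, limma 3.58.1 (voom, and log2 of the deposited FPKM plus 1 or plus 0.1), other scalings and filters, a replicate block, and fits without single libraries or pairs.

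The 39 gene lists and 13 pairs were chosen with earlier results of these data known. Named genes were the markers, the 8 restricted genes per organ with the highest mean, up to 4 called members per direction of each list (8 for regulators) with the largest fold change among those with at least 5 CPM, both genes of each pair, the 8 smallest interaction p values, the 6 even genes with the highest level, and the trace genes with the highest or lowest share. Cyp2e1, Ttr, Gc, C8a, Baat, Uox, Slc7a13, Cebpa, Hnf4a, Pax8, Amy2a5, Ctrb1 and Pnlip were chosen after their values were seen. Some genes that the rule names are not reported here. Shares of a library count 51 hepatocyte and 44 proximal tubule genes.

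The fit was tested on simulated data with known changes before use. For the organ contrast, 13.4%, 82.1% and 95.5% of changes of 2, 4 and 8 times were called, with 6 false calls. For the interaction, 1.49%, 53.7% and 75.8% were called in the same order, with 2 false calls. Only a small set of genes above a minimum mean count was changed. In the simulated organ contrast the kidney means served both organs before the changes. The shift in scale between the real organs was thus absent, and these shares say nothing about it.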

Additional observations from a re-analysis of the deposited data

Results flagged for a closer look

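Among the 4 kidneys, a value was marked where its distance to the nearest other kidney, as a share of the whole range, passed Dixon's limit for 4 samples. For normally distributed, separate values chance marks about 1 group in 20. Here CPM were used untransformed, and a gene counted in only 1 kidney is always marked. Genes and list sums also share members and libraries, so 1 in 20 is not the rate to expect. Here 28 of 207 named genes (13.5%) and 7 of 39 list sums (17.9%) were marked, and kidney vitrified 4 was the library in 23 of the 35, as the highest in 21 and the lowest in 2. The livers, 3 in number, were not examined in this way. All values are CPM, and no cause was tested.

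Kidney 4 was highest in the summed levels of the thick ascending limb (13323), collecting duct principal cell (1442), collecting duct intercalated cell (2165.5), podocyte (1813), cholangiocyte (1412) and erythroid (852) lists. By gene it was highest for the distal tubule channel Kcnj1 (405), the water channel Aqp2 (318), the urea transporter Slc14a2 (83.7) and the vasopressin receptor Avpr2 (27.3). In the glomerulus it was highest for Nphs1 (71.1), Podxl (526) and the endothelial Emcn (140.3). Of the regulators it was highest for Tfap2b (85.9), Foxi1 (43.0), Esrrb (57.4) and Hoxb9 (33.8). Of the metabolic genes it was highest for Hk1 (196), Cpt1b (34.1) and Gys1 (52.3), and it was also highest for the RNA-binding protein gene Hnrnpa1 (159). It was lowest for the proximal tubule enzyme Ggt1 (257) and for Acadm (663), a dehydrogenase of fatty acid oxidation.

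Kidney 3 was highest in the summed heat shock list (11284) and for Zfp36 (63.2), Junb (30.3) and Hspa5 (902). Kidney 1 was highest for Slc34a1 (4239.7), Bnc2 (26.5) and Adrb3 (0.0501). Kidney 2 was highest for F11 (0.249), Vsig4 (0.373), Inhbe (0.124) and Col6a5 (0.0622), which are a few counts or fewer, and lowest for Tnks2 (129).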

How the results depend on the processing

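Scaling moved the split of calls most. Higher in liver and higher in kidney were 1175 and 8161 genes by library totals, 1189 and 7998 by limma on log2(FPKM + 1), and 1191 and 8199 on log2(FPKM + 0.1). Past 2 times, library totals gave 831 and 4315. Of the 6383 main calls, 4670 were called with the same sign by library totals. Restricted genes numbered 605 at 30 times (377 in kidney) and 118 at 300 times (72 in liver, 46 in kidney), and DESeq2 size factors gave 210 in liver and 93 in kidney. On TMM-scaled totals the median liver shares were 0.0975% in kidney 1 and 0.136% in kidney 2.

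Leaving out single libraries gave 5174 to 6088 calls (2248 to 2793 in liver, 2926 to 3360 in kidney), 3189 to 3517 past 2 times (1214 to 1400 and 1975 to 2130), 360 to 396 restricted genes (169 to 181 and 189 to 215), and no interaction was called in any of them. There were 5357 calls without kidneys 3 and 4, and 4741 without kidneys 1 and 2, the latter a choice made after seeing the data. The sign reversed for Rps27 (-0.032) and Rpl37 (-0.11) by library totals, and for Rpl37 on both FPKM scales (-0.043 each). The cause was not tested. Of 202 genes named for an organ difference, 3885 of their alternative values kept sign and call, 144 lost the call, 7 gained it and 4 reversed. Losses numbered 19 without kidneys 3 and 4, 9 without kidneys 1 and 2, 11 without liver 3 and 7 without kidney 4.

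Same-numbered liver and kidney libraries had correlations of 0.10, 0.0396 and 0.307, and differently numbered ones between -0.206 and 0.086. For kidneys 1, 2 and 3 the same-numbered liver had the highest correlation of the livers. Whether the replicate numbers pair the samples is not given by the labels and was not tested. With the number as a block 6371 genes were called. With 3 and 4 samples small changes can be missed, and a count of 0 limits levels to 0.187 CPM at most.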
